A study of Mus musculus with 7 samples.

Results

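The windows described here are 200 bp stretches of the mouse autosomes where BRG1 chromatin immunoprecipitation (ChIP-seq) gave more reads in stimulated Th17 cells than in both stimulated Th1 and stimulated Th2 cells. They numbered 2112 of 12361611 autosomal windows. Levels are in RPM, reads per 1000000 distinct reads of a library, with 1 read kept per 5′ end and strand. A window was chosen where stimulated Th17 reached at least 2 RPM, at least 2.5 times the RPM of both stimulated Th1 and stimulated Th2, and at least 3 times the sum of the input RPM and 0.3. Windows that met the Th17 and input parts of the rule are called Th17-bound. They numbered 18018, of which 2112, or 11.7%, preferred Th17 and the other 15906 did not. All positions are on mm9, and the files attach no genes to them.

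The 7 libraries were 1 each of stimulated Th17, stimulated Th1, stimulated Th2, resting Th1, resting Th2 and naive CD4+ cells, and pooled CD4+ T helper cell input DNA taken without antibody. All BRG1 libraries used the J1 antibody and cells of Balb/C mice, with naive CD4+CD62L+ cells purified to 95% from spleens and lymph nodes at 4 to 6 weeks of age. Th17 cultures received soluble anti-CD3 and anti-CD28, 100 ng/ml of IL-6 together with 10 ng/ml of IL-1β and 1 ng/ml of TGF-β, antibodies to IL-4 and IFNγ, and later 10 ng/ml of IL-23. Th1 and Th2 cultures were started on plates coated with anti-CD3 and anti-CD28, Th1 with IL-12 at 1 ng/ml and anti-IL-4, Th2 with IL-4 at 10 ng/ml and anti-IFNγ, and both were expanded in IL-2 at 100 U/ml. For stimulation, 50 ng/ml of PMA with 500 ng/ml of ionomycin was given over 1.5 h. Naive cells came straight from the mouse, without culture. No resting Th17 library was analysed here, so in these windows the subset, its culture conditions and its response to stimulation cannot be told apart. ChIP-seq measures a population, so binding in fewer cells and weaker binding per cell cannot be told apart either. The labels give no share of Th17 cells in the culture, and with no genes attached to positions the label was not checked against marker genes.

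BRG1 is an ATPase of the SWI/SNF complexes, which slide or evict nucleosomes and thereby open DNA to transcription factors. Th17 cells are helper T cells that make IL-17 and depend on the nuclear receptor RORγt, with STAT3, BATF and IRF4 acting upstream of it. Much of the DNA that separates one helper subset from another lies in distal enhancers, and PMA with ionomycin stands in for signalling through the T cell receptor.

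Stimulated Th17 was the deepest library, with 7892944 distinct reads, against 3917492 in stimulated Th1 and 4261900 in stimulated Th2, with 3531867 in input. The unstimulated libraries were shallower, with 1808000 distinct reads in resting Th1, 1340208 in resting Th2 and 2071800 in naive, and more repetitive. Reads that repeated a 5′ end and strand made up 28.5% to 41.4% of the unstimulated libraries and 7.23% to 11.8% of the others. With 1 library in each group, differences have no replicate check, and no p-value is given. Intervals are 95% exact intervals that cover counting error only and treat reads, or windows, as independent, although reads amplified by 18 PCR cycles without molecular identifiers are not independent molecules.

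The levels that chose the windows are a description. In the Th17-preferring windows, stimulated Th17 had 16 reads at the lowest, 19 at the median and 61 at the highest, which is 2.03, 2.41 and 7.73 RPM. Stimulated Th1 ran from 0 to 9 reads with a median of 2, and stimulated Th2 from 0 to 13 with a median of 2. Most of the windows lay close to the lower limit: 1140, or 54.0%, had 16 to 19 Th17 reads and 127 had at least 32. Stimulated Th1 had no read in 312 windows, stimulated Th2 in 234, and both were empty in 60. Of the 2 other subsets, stimulated Th1 had the higher RPM in 1136 windows and stimulated Th2 in 916. However, 1 read is 0.255 RPM in stimulated Th1 and 0.235 in stimulated Th2, so equal counts above 0 fall to stimulated Th1. The mean was the other way, at 0.519 RPM in stimulated Th1 and 0.543 in stimulated Th2.

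The limits of the rule cut through a continuous range of values. With 16 Th17 reads, the fewest allowed, 418 windows were chosen, while 493 windows with 15 reads met all other parts. The 3 windows nearest to the fold limit from inside had 2.53, 2.55 and 2.55 times the larger of stimulated Th1 and Th2, and the 3 nearest from outside had just under 2.5, 2.48 and 2.48 times. Against input plus 0.3 RPM, the 3 nearest inside all stood at 3.07 times and the 3 nearest outside at 2.98 times. The window at 2.53 times had the most Th17 reads of any single window. It lies on chromosome 18, 60896401 to 60896600, and had 61 reads in stimulated Th17, 3 in stimulated Th1 and 13 in stimulated Th2, with 2 in resting Th1, 1 in resting Th2 and 0 in naive and input.

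**Figure D1:**
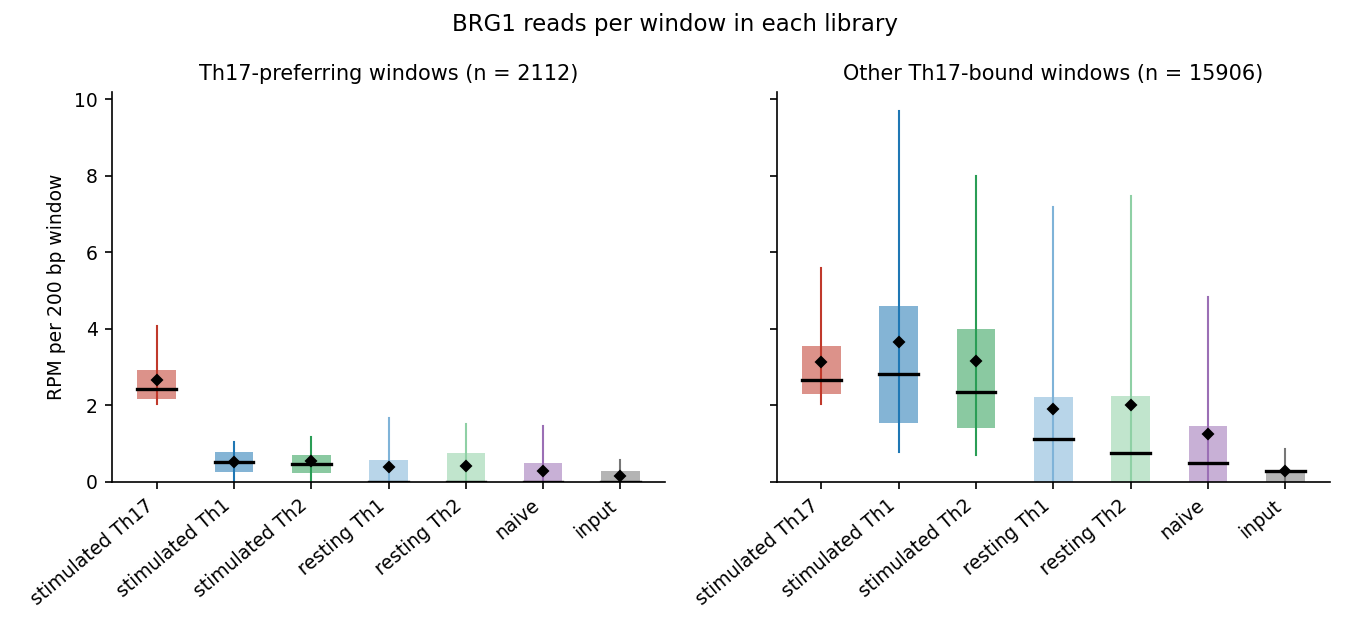
RPM per 200 bp window in each of the 7 libraries, in the 2112 Th17-preferring windows (left) and in the other 15906 Th17-bound windows (right); boxes span the 25th to the 75th percentile, thin lines the 5th to the 95th, black bars mark medians and diamonds means. On the left the medians of resting Th1, resting Th2 and naive lie at 0, while on the right they lie at 1.11, 0.746 and 0.483 RPM.

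The preference in the reads that chose the windows is set in part by the choice, so it was read again on reads not used for choosing. Windows were chosen by the same rule on forward-strand reads alone and then read on the reverse strand, and the other way round. The 3630 windows chosen on forward reads had a stimulated Th17 to stimulated Th1 ratio of 6.83 on the forward strand and of 2.12 (2.07 to 2.19) on the reverse strand. Their ratio to stimulated Th2 was 6.49 on the forward strand and 2.06 (2.00 to 2.11) on the reverse strand. The 3551 windows chosen on reverse reads had ratios of 2.08 (2.02 to 2.14) to stimulated Th1 and 2.00 (1.95 to 2.05) to stimulated Th2 on the forward strand. The stimulated Th17 library thus exceeded the stimulated Th1 and stimulated Th2 libraries on the unused strand, by about 2 times and less than on the strand used to choose. Both strands belong to the same libraries, so the split lessens the part of counting error in the choice only. A local bias of a library that both strands share was not tested, nor was a difference between subsets beyond these libraries.

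Window by window, stimulated Th17 was the higher library on the unused strand in 77.8% of the windows chosen on forward reads against stimulated Th1. Against stimulated Th2 it was higher in 82.6%. No such share was computed for other windows, and stimulated Th17 is the deeper library. The share to be met without a preference is therefore not known. Other windows bound on the forward strand had a pooled ratio of 0.775 to stimulated Th1 and 0.896 to stimulated Th2 on the reverse strand. With 1 strand, 2 RPM is fewer reads than with both, and of the 3630 windows 1139 were also among the 2112, so these ratios belong to a broader set. Over the 2112 windows themselves the pooled ratios were 5.11 to stimulated Th1 and 4.88 to stimulated Th2, values that the rule sets in part.

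**Figure D2:**
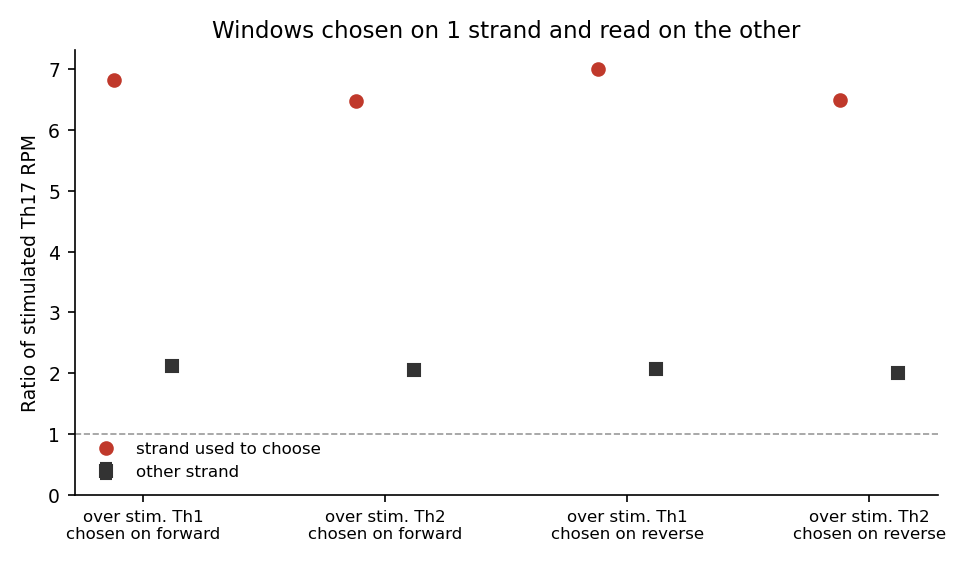
Pooled ratio of stimulated Th17 RPM to stimulated Th1 or stimulated Th2 RPM in windows chosen on 1 strand, shown on the strand used to choose (circles) and on the other strand (squares, with 95% counting intervals narrower than the symbol); the dashed line marks a ratio of 1. All 4 ratios lie between 6.49 and 7.01 on the strand used to choose and between 2.00 and 2.12 on the other.

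The 3 unstimulated libraries took no part in the choice, and all 3 had few reads in the Th17-preferring windows. The windows averaged 0.373 RPM in resting Th1 (0.354 to 0.393), 0.394 in resting Th2 (0.371 to 0.418), 0.280 in naive (0.265 to 0.296) and 0.149 in input. The other Th17-bound windows averaged 1.88 RPM in resting Th1, 2.00 in resting Th2, 1.23 in naive and 0.285 in input. The Th17-preferring windows thus held 0.198 times (0.188 to 0.209) the level of the other windows in resting Th1, 0.197 times (0.186 to 0.209) in resting Th2 and 0.228 times (0.215 to 0.241) in naive. They were also lower in input, at 0.523 times, and that level is part of the rule for both sets. The others failed the fold part, so by the rule they have more stimulated Th1 or stimulated Th2 reads. They averaged 3.64 RPM in stimulated Th1 and 3.14 in stimulated Th2, against 0.519 and 0.543 in the Th17-preferring windows. The part of this in the resting and naive ratios was not tested. Over the 3 unstimulated libraries pooled, the level of the Th17-preferring windows was 0.207 times that of the others, and 0.189 times with repeated reads kept.

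The difference was also seen between windows of like Th17 level, which by the rule still differ in stimulated Th1 or stimulated Th2. Among windows with 2 to 3 Th17 RPM, the 1627 preferring Th17 had 0.274 times the resting Th1 level of the 9778 others, 0.273 times the resting Th2 level and 0.315 times the naive level. Among windows with 3 to 5 Th17 RPM the 456 preferring Th17 had 0.195, 0.201 and 0.211 times the levels of the others in the same libraries. The 29 preferring Th17 at 5 RPM and above had 0.145 (0.104 to 0.197), 0.189 (0.137 to 0.253) and 0.109 (0.0681 to 0.165) times the levels of the 1275 others.

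The unstimulated levels were above the mean over all autosomal windows. The Th17-preferring windows stood at 4.80 times that mean in resting Th1, 5.06 times in resting Th2, 3.62 times in naive and 1.93 times in input. Over input, whose reads the rule holds low, they stood at 2.5 (2.31 to 2.71) in resting Th1, 2.64 (2.43 to 2.87) in resting Th2 and 1.88 (1.73 to 2.04) in naive. Both resting libraries exceeded naive, resting Th1 with a ratio of 1.33 (1.23 to 1.44) and resting Th2 with 1.41 (1.3 to 1.53), while the resting Th2 to resting Th1 ratio of 1.06 (0.976 to 1.14) had an interval that includes 1. In the other Th17-bound windows the ratios to naive were 1.53 (1.51 to 1.55) for resting Th1 and 1.63 (1.6 to 1.65) for resting Th2, above the intervals of the Th17-preferring windows, and the resting Th2 to resting Th1 ratio was 1.06.

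A single window of the set was mostly without reads in these shallow libraries. Resting Th1 had no read in 63.0% of the Th17-preferring windows, resting Th2 in 66.2% and naive in 67.3%, against 28.6%, 30.9% and 36.8% of the other Th17-bound windows. All 3 unstimulated libraries were empty together in 731 Th17-preferring windows, or 34.6% (32.6 to 36.7), against 10.4% of the others. Of those 731, 441 had no input read either and 290 had at least 1. All 3 had at least 1 read in 177 Th17-preferring windows, or 8.38%, against 43.3% of the others.

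Few Th17-preferring windows met in an unstimulated library the level that stimulated Th17 had to meet, at least 2 RPM and at least 3 times input plus 0.3. In resting Th1 65 did, or 3.08% (2.38 to 3.91), where 24.7% of all Th17-bound windows did. In resting Th2 the count was 90, or 4.26%, where 27.0% of all Th17-bound windows passed, and in naive it was 30, or 1.42%, where 13.7% passed. At least 1 of the 3 libraries passed in 157 windows, or 7.43%, beside 37.2% of all Th17-bound windows, and all 3 passed in 6, or 0.284%, against 9.56% of the other Th17-bound windows. The reads needed for 2 RPM were 4 in resting Th1, 3 in resting Th2 and 5 in naive, so single passes rest on a handful of reads.

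The windows with most unstimulated reads differed between libraries. On chromosome 13, 49338001 to 49338200, stimulated Th17 had 32 reads, stimulated Th1 5, stimulated Th2 4, resting Th1 12, resting Th2 5, naive 0 and input 2. Resting Th1 was there the highest library in RPM, at 6.64 against 4.05 in stimulated Th17. On chromosome 1, 167621801 to 167622000, the counts were 31 in stimulated Th17, 6 in stimulated Th1 and 4 in stimulated Th2, with 10 in resting Th1, 2 in resting Th2, 7 in naive and 0 in input, and this window was among the 5 highest of both resting Th1 and naive.

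Resting Th2 was highest on chromosome 10, 66567801 to 66568000, where stimulated Th17 had 16 reads, stimulated Th1 3, stimulated Th2 1, resting Th1 0, resting Th2 7, naive 0 and input 1. On chromosome 5, 117608601 to 117608800, stimulated Th17 had 35 reads, stimulated Th1 2, stimulated Th2 6, resting Th1 1, resting Th2 6 and naive and input 0. Naive was highest on chromosome 11, 3080001 to 3080200, with 37 reads in stimulated Th17, 5 in stimulated Th1 and 4 in stimulated Th2, with 3 in resting Th1, 1 in resting Th2, 10 in naive and 2 in input. In these 5 windows at least 1 unstimulated library stood above stimulated Th1 and stimulated Th2 in RPM. That follows from the choice, as the windows were picked for high unstimulated RPM and the rule holds stimulated Th1 and Th2 low. The 5 highest windows of each library had 9 to 12 reads in resting Th1, 6 to 7 in resting Th2 and 7 to 10 in naive.

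Only a small number of the windows had enough reads for a comparison between 2 unstimulated libraries, set at 8 reads in the pair and a 2.5-fold difference. Of 43 such windows, resting Th1 was higher than naive in 10 and lower in 9, where 22.7% of all autosomal windows with enough reads were higher and 6.41% lower. Resting Th2 was higher than naive in 1 of 20 and lower in 6, where 27.2% were higher and 7.05% lower. Resting Th1 was higher than resting Th2 in 6 of 26 and lower in 0, where 9.15% were higher and 9.84% lower. A window can pass the read minimum through the library in which it is high, so the counts describe these windows only.

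Among the Th17-preferring windows, unstimulated levels were higher where stimulated Th1 or stimulated Th2 kept more reads. The 357 windows with under 0.3 RPM in both stimulated Th1 and stimulated Th2 averaged 0.217 RPM in resting Th1, 0.217 in resting Th2, 0.180 in naive and 0.130 in input. The 484 windows whose larger value was 0.3 to 0.6 RPM averaged 0.286, 0.358, 0.218 and 0.119 in the same libraries, and the 759 with 0.6 to 0.9 RPM averaged 0.391, 0.405, 0.309 and 0.139. The 512 with 0.9 RPM and above averaged 0.538, 0.536, 0.366 and 0.206. In the first of these groups the intervals of naive (0.151 to 0.213) and input (0.111 to 0.152) overlapped. Stimulated Th17 itself was higher in the last group, at 3.42 RPM against 2.35 in the first, and the fold limit sets part of that.

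The mean profile around the windows had a sharp peak in stimulated Th17 and a broad, low rise in the unstimulated libraries. The rule asks for at least 2 Th17 RPM in the window and not in its flanks, so it sets the stimulated Th17 peak in part. Stimulated Th17 averaged 2.65 RPM in the Th17-preferring windows and 0.674 RPM in the windows 400 to 1000 bp away on both sides, a ratio of 3.93. That ratio was 1.09 (1.03 to 1.15) in resting Th1, 1.02 (0.960 to 1.09) in resting Th2, 1.14 (1.07 to 1.21) in naive and 0.878 in input. In the other Th17-bound windows it was 3.80 in stimulated Th17, 3.28 in resting Th1, 3.10 in resting Th2 and 2.94 in naive. Those windows failed the fold part and so have more stimulated Th1 or stimulated Th2 reads. The part of this in their resting and naive ratios was not tested. The windows directly beside the Th17-preferring ones were left out of this ratio. They averaged 0.393 and 0.411 RPM in resting Th1 and 0.439 and 0.473 in resting Th2, above the 0.373 and 0.394 of the Th17-preferring windows. Naive was the other way, with 0.249 and 0.267 beside them against 0.280. The reads of resting and naive cells over the Th17-preferring windows were close to the level of the surrounding kilobase. The ratio of the 3 unstimulated libraries pooled, 1.08, lay below 1 under some settings, at 0.935 (0.880 to 0.994) with a 4-fold limit, 0.984 (0.939 to 1.03) after scaling the ratios by their medians and 0.979 (0.956 to 1.002) with stimulated Th17 thinned to the depth of stimulated Th1. The interval of the first lies below 1, and those of the other two include it.

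Part of the set had other Th17-bound windows in its flanks. In the 1215 Th17-preferring windows with no other Th17-bound window within 1 kb, the ratio of window to flank was 5.49 in stimulated Th17, 1.26 (1.17 to 1.36) in resting Th1, 1.17 (1.08 to 1.28) in resting Th2 and 1.32 (1.21 to 1.43) in naive, with 0.949 in input. In the 7800 other Th17-bound windows that stood alone in the same way it was 5.38 in stimulated Th17, 4.10 in resting Th1, 3.87 in resting Th2 and 3.48 in naive. These windows were kept for their flanks, which lowers the flank level by choice, in resting Th1 from 0.344 to 0.272 RPM. The ratio was also higher than in the whole set in stimulated Th1, at 1.45 against 1.05. In stimulated Th2 it was 1.42 against 1.09. A weak excess over the flank was seen in all 3 unstimulated libraries in these windows, and the part of the choice in it was not tested.

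**Figure D3:**
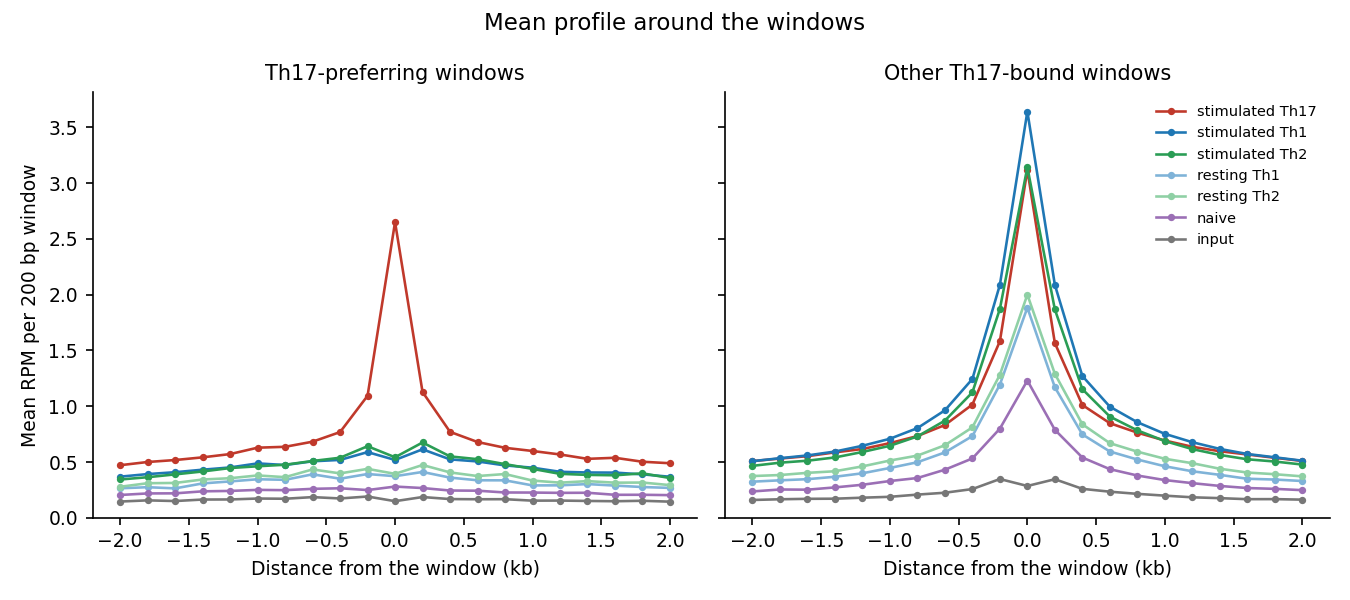
Mean RPM per 200 bp window of each library from 2 kb before to 2 kb after the Th17-preferring windows (left) and the other Th17-bound windows (right). Stimulated Th17 reaches 2.65 RPM on the left, where the unstimulated libraries show a broad, low rise and no sharp peak: over the plotted range resting Th1 runs between 0.264 and 0.411 RPM, resting Th2 between 0.278 and 0.473 and naive between 0.203 and 0.280. All BRG1 libraries peak on the right. The rule sets the stimulated Th17 peaks in part.

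The excess of stimulated Th17 was not limited to the chosen windows. In windows 0.4 to 1 kb away that were not themselves Th17-bound, stimulated Th17 had 1.36 times (1.34 to 1.38) the RPM of stimulated Th1 and 1.31 times (1.29 to 1.32) that of stimulated Th2. The ratio to stimulated Th1 was 1.29 at 1 to 2 kb, 1.23 at 2 to 5 kb, 1.18 at 5 to 10 kb and 1.13 at 10 to 50 kb. Around the other Th17-bound windows it was 0.868 at 0.4 to 1 kb, 1.06 at 1 to 2 kb, 1.13 at 2 to 5 kb, 1.13 at 5 to 10 kb and 1.10 at 10 to 50 kb. The ratio to stimulated Th1 thus differed between the surroundings of the 2 sets most at 0.4 to 1 kb and least at 10 to 50 kb. The other Th17-bound windows have more stimulated Th1 or stimulated Th2 reads by the rule, and fragments can overlap neighbouring windows. Leaving out Th17-bound windows also holds down stimulated Th17 in the surroundings. The part of these choices in the difference near the windows was not tested.

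The same rule with stimulated Th1 or stimulated Th2 in front gave sets with a different unstimulated pattern. The resting Th2 to resting Th1 ratio was 1.06 in the Th17-preferring windows and 2.32 (2.22 to 2.41) in the 3236 windows preferring stimulated Th2, which averaged 0.610 RPM in resting Th1, 1.41 in resting Th2 and 0.276 in naive. The 2827 windows preferring stimulated Th1 averaged 0.824 RPM in resting Th1, 0.728 in resting Th2 and 0.655 in naive. Input, which the rule holds low, averaged 0.149 RPM in the Th17-preferring windows, 0.198 in the Th1-preferring and 0.203 in the Th2-preferring ones. In resting Th1, resting Th2 and naive, 3.08%, 4.26% and 1.42% of the Th17-preferring windows met the level that stimulated Th17 had to meet. Of the Th1-preferring windows 9.52%, 9.98% and 5.55% did, and of the Th2-preferring ones 7.48%, 24.9% and 1.21%. The low share in naive was thus common to the Th17-preferring and the Th2-preferring windows. The Th17-preferring windows were the lowest of the 3 sets in both resting libraries, and in naive they had 0.280 RPM (0.265 to 0.296), close to the 0.276 (0.264 to 0.289) of the Th2-preferring windows and under the Th1-preferring ones. With the 3 stimulated libraries at equal depth the Th17-preferring set grew to 4530 windows and averaged 0.379 RPM in resting Th1, 0.393 in resting Th2 and 0.303 in naive, against 0.622, 1.36 and 0.299 for the 4028 preferring stimulated Th2 and 0.847, 0.769 and 0.676 for the 3334 preferring stimulated Th1. By the rule the Th17-preferring windows are low in both stimulated Th1 and stimulated Th2. Each of the other sets is high in stimulated Th1 or in stimulated Th2, and the resting libraries are of these same subsets. The part of this in the ranking of the sets was not tested. No resting Th17 library took part, so whether the Th17-preferring windows are bound in resting Th17 cells was not tested.

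**Figure D4:**
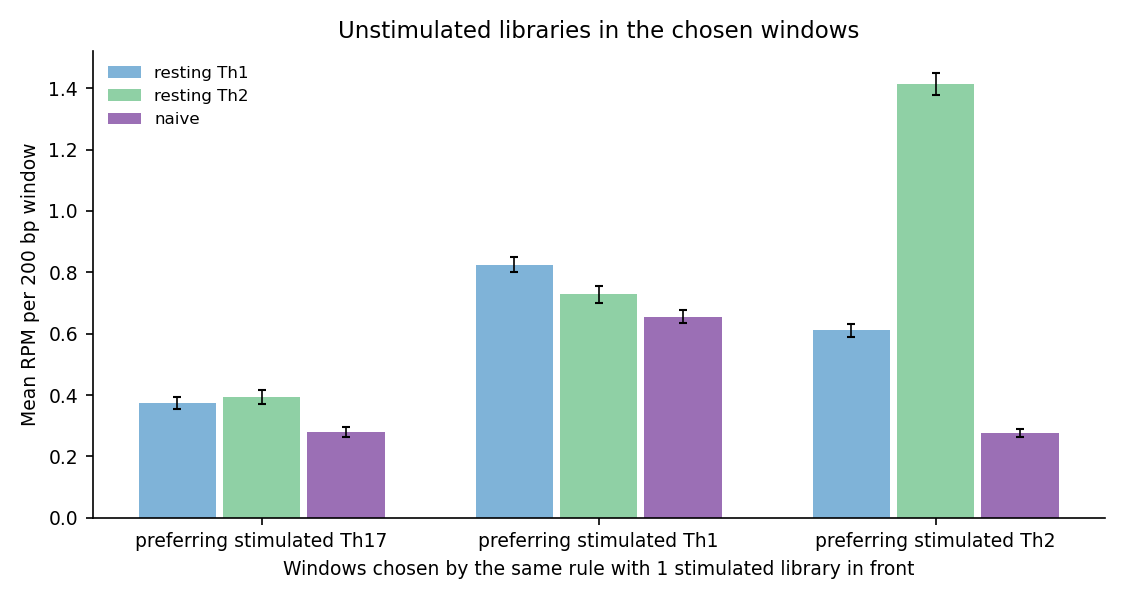
Mean RPM per 200 bp window of resting Th1, resting Th2 and naive in windows chosen by the same rule with stimulated Th17 (2112 windows), stimulated Th1 (2827) or stimulated Th2 (3236) in front; error bars are 95% Poisson intervals. Resting Th2 stands at 0.394 RPM in the Th17-preferring windows and at 1.41 RPM in the Th2-preferring ones.

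The windows were short and often lay near each other. Joined over gaps of up to 1 window they formed 1965 regions, of which 1829 were 1 window, 125 held 2 and 11 held 3, the longest spanning 1000 bp. Another Th17-preferring window lay within 1 kb of 16.8% (15.2 to 18.4), within 10 kb of 32% (30.0 to 34) and within 50 kb of 52.3%. The sets preferring stimulated Th1 and stimulated Th2, which are larger, had 27.6% and 28.7% within 10 kb. As many Th17-bound windows taken at even steps through the genome had 2.32% within 10 kb and 20.1% within 50 kb, but even steps skip direct neighbours and so understate short distances. A Th17-bound window that did not prefer Th17 lay within 1 kb of 30.9% of the windows and within 10 kb of 61.4%.

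The 10 joined regions with most stimulated Th17 reads had 75 to 93 of them, windows in joining gaps included, with 1 to 18 in stimulated Th1, 0 to 23 in stimulated Th2, 0 to 13 in resting Th1, 0 to 8 in resting Th2, 0 to 2 in naive and 0 to 3 in input. These counts are not scaled for the depth of the libraries. The first, on chromosome 7, 50785201 to 50786200, had 93 reads in stimulated Th17, 13 in stimulated Th1 and 23 in stimulated Th2, with 4 in resting Th1, 2 in resting Th2, 0 in naive and 2 in input. In RPM, stimulated Th17 was there 3.55 times (1.98 to 6.92) stimulated Th1. It was 2.18 times (1.37 to 3.61) stimulated Th2, below the 2.5-fold limit of single windows, as gap windows are included. On chromosome 1, 20750001 to 20750400, stimulated Th17 had 76 reads, stimulated Th1 1, stimulated Th2 12, resting Th1 1 and resting Th2, naive and input 0. Stimulated Th2 was there the only other library with more than 1 read, and stimulated Th17 had 3.42 times (1.85 to 6.91) its RPM.

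On chromosome 17, 8434601 to 8435600, stimulated Th17 had 76 reads, stimulated Th1 1, stimulated Th2 0, resting Th1 4, resting Th2 and naive 0 and input 1. On chromosome 4, 62417801 to 62418400, stimulated Th17 had 90 reads, stimulated Th1 18, stimulated Th2 15, resting Th1 13, resting Th2 8, naive 2 and input 2. The chromosome 4 region stood apart among the 10 for its resting reads: in RPM, resting Th1 had 7.19 and resting Th2 5.97 there, above stimulated Th1 at 4.59 and stimulated Th2 at 3.52. Over its span stimulated Th17 was 2.48 times (1.48 to 4.38) stimulated Th1 and 3.24 times (1.86 to 6.03) stimulated Th2 in RPM. On chromosome 13, 30695601 to 30696200, stimulated Th17 had 79 reads, stimulated Th1 and stimulated Th2 10 each, resting Th1 and resting Th2 0, naive 2 and input 3. In RPM, stimulated Th17 was there 3.92 times stimulated Th1 and 4.27 times stimulated Th2.

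Grouped with gaps of up to 50 kb, the windows fell into 1402 clusters, of which 1007 were single windows and 34 held at least 5. The one with most windows lay on chromosome 17, 8402801 to 8477600, and held 13 Th17-preferring windows among 15 Th17-bound windows. The last of the 13, 8477401 to 8477600, lay apart from the one before it, which ended at 8435600, and was joined only by the allowed gap. Over these 13 windows stimulated Th17 had 287 reads, stimulated Th1 21, stimulated Th2 11, resting Th1 5, resting Th2 2, naive 7 and input 5. Per window that is 2.80 RPM in stimulated Th17 and at most 0.412 in any other library.

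From 5 kb before to 5 kb after the cluster, the 13 chosen windows held 287 of 1503 stimulated Th17 reads, so most lay outside them. They held 21 of 251 stimulated Th1 reads and 11 of 267 stimulated Th2 reads. Over all 424 windows stimulated Th17 averaged 0.449 RPM, against 0.151 in stimulated Th1 and 0.148 in stimulated Th2, with 0.110 in resting Th1, 0.127 in resting Th2, 0.140 in naive and 0.103 in input. These averages include the chosen windows, whose stimulated and input levels the rule sets in part. No average was computed for the windows between them alone. All 7 libraries shared a peak in the window 73.6 kb from the start of the cluster, which was not Th17-bound. It had 4.05 RPM in stimulated Th17, 5.11 in stimulated Th1 and 6.80 in stimulated Th2, with 6.64 in resting Th1, 7.46 in resting Th2, 4.34 in naive and 4.53 in input.

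Further clusters of 11 windows lay on chromosome 11, 68262801 to 68316200, and on chromosome 14, 26304401 to 26409600. On chromosome 11 the 11 windows were among 16 Th17-bound ones and had 217 reads in stimulated Th17, 22 in stimulated Th1 and 20 in stimulated Th2, with 5 in resting Th1, 6 in resting Th2, 8 in naive and 6 in input. On chromosome 14 they were among 22 Th17-bound ones and had 212 reads in stimulated Th17, 23 in stimulated Th1 and 26 in stimulated Th2, with 8 in resting Th1, 7 in resting Th2, 6 in naive and 5 in input. In all 3 clusters each single window had 16 to 34 stimulated Th17 reads and at most 4 in stimulated Th1, stimulated Th2, resting Th1, resting Th2 or naive.

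**Figure D5:**
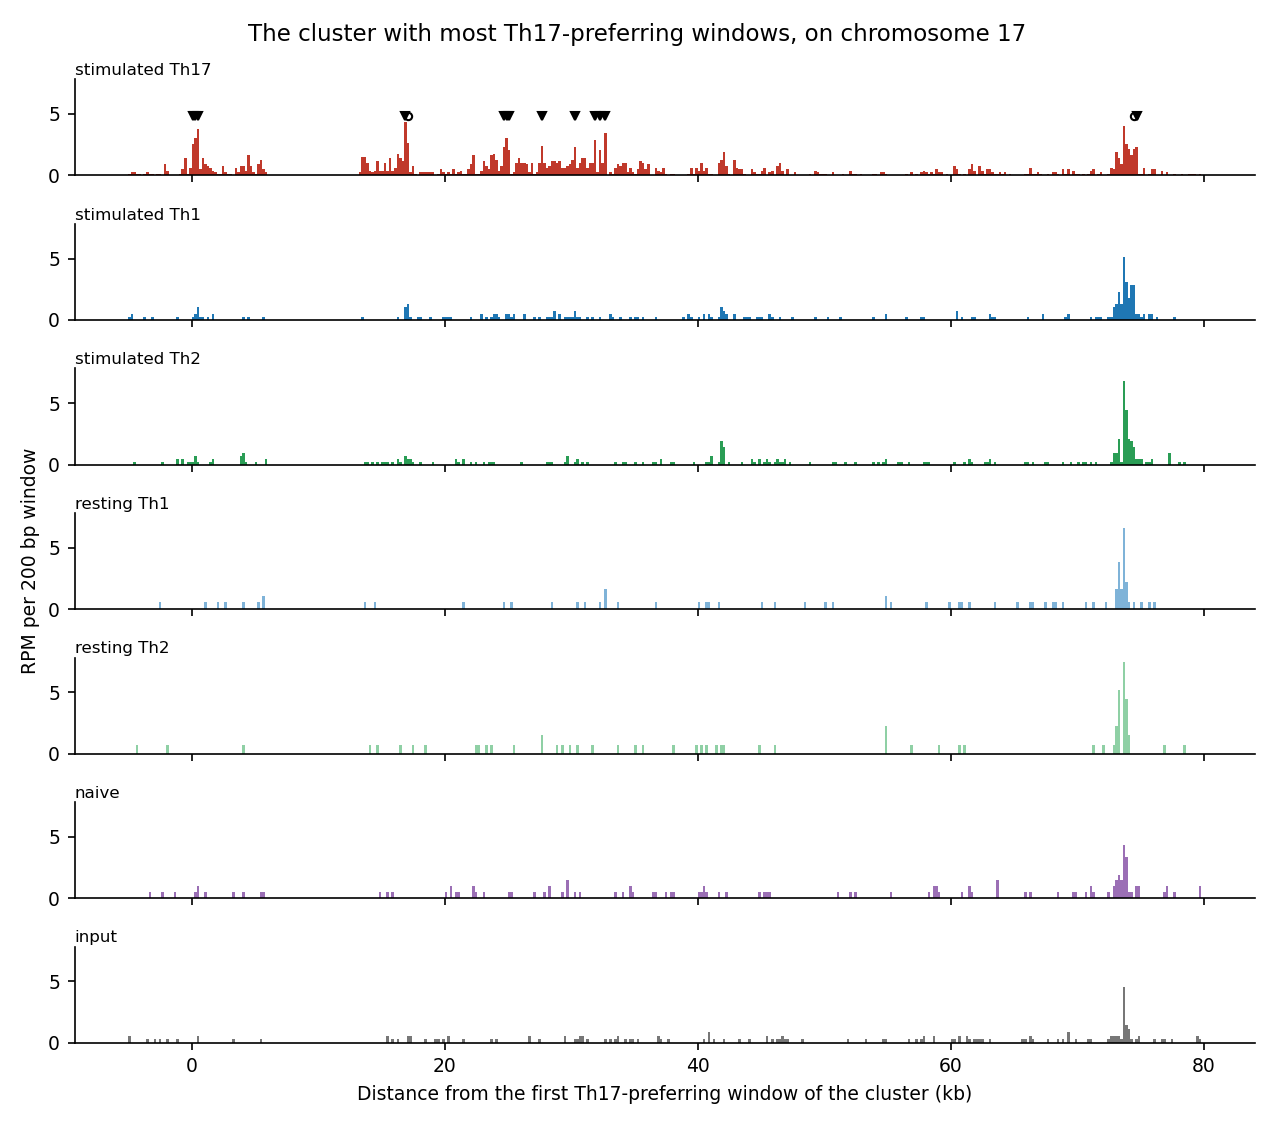
RPM per 200 bp window of each library over the cluster on chromosome 17, by distance from its first Th17-preferring window; triangles mark the 13 Th17-preferring windows and open circles the other 2 Th17-bound windows. Stimulated Th17 is spread over several peaks where the other libraries stay low, and all 7 libraries share the peak near the right end.

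Windows in large clusters and windows alone had overlapping intervals in the unstimulated libraries. The 222 windows in clusters of at least 5 averaged 0.389 RPM in resting Th1, 0.40 in resting Th2 and 0.344 in naive (0.292 to 0.401), against 0.368, 0.397 and 0.293 (0.271 to 0.318) in the 1007 windows alone within 50 kb. The 283 windows in joined regions of 2 or 3 were lower than the 1829 single ones in resting Th1, at 0.281 (0.237 to 0.331) against 0.387 (0.366 to 0.409), and in naive, at 0.218 (0.182 to 0.260) against 0.290 (0.273 to 0.307). In resting Th2 the intervals overlapped, at 0.340 (0.284 to 0.404) against 0.403 (0.378 to 0.429).

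Across chromosomes, the share of Th17-bound windows that preferred Th17 ran from 9.98% (8.13 to 12.1) on chromosome 10 to 16% (13.3 to 19) on chromosome 13. Chromosome 1, with 176 of 1108 or 15.9% (13.8 to 18.2), and chromosome 18, with 73 of 470 or 15.5% (12.4 to 19.1), also had intervals above the 11.7% of all autosomes. Chromosome 11, with 169 of 1680 or 10.1% (8.66 to 11.6), had its interval below it. These intervals treat windows as independent, although 52.3% of the Th17-preferring windows had another within 50 kb. They also make no allowance for comparing 19 chromosomes. No chromosome lacked such windows, the fewest being 64 on chromosome 14.

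Reads over the windows came evenly from both strands. Forward reads made up 50.4% of the stimulated Th17 reads in the Th17-preferring windows and 50.0% in the other Th17-bound windows. None of the 2112 windows had its stimulated Th17 reads on 1 strand only, and 47, or 2.23%, had under 25% on the weaker strand, against 2.11% of the others. With repeated reads counted, 21.1% of the stimulated Th17 reads in the Th17-preferring windows repeated a position, against 34.1% in the other Th17-bound windows and 10.2% in the library as a whole.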

How the data were processed

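For each library the authors deposited its aligned reads, each line a position and strand, with no count or signal, on mm9 per the submitters' processing notes. How reads were aligned and filtered is not given in the sources used. All reads were 34 bases long. Chromosome Y was left out, 1 read was kept per 5′ end and strand, each 5′ end was moved 75 bp inward, and reads were counted in 200 bp windows of the 19 autosomes with Python 3.11.15, numpy 2.4.6 and scipy 1.17.1. RPM used all distinct reads outside chromosome Y. Levels have Poisson intervals, ratios conditional exact intervals and percentages Clopper-Pearson intervals. The rule was tried on simulated reads with planted windows whose difference lay well above the fold limit, and the intervals on simulated Poisson counts. No windows near the fold limit were planted, so this does not show how the rule behaves there. With 1 library per group no test was run. Regions were named by rule: the 10 joined regions with most stimulated Th17 reads, the 5 windows highest in each unstimulated library, the 3 clusters with most windows and the 3 windows on each side of a limit; examples among them were picked with values known. The windows, limits and lists were chosen with earlier results of these data known, and window-to-flank ratios and sets preferring Th1 or Th2 were added later. The gene and promoter tables at hand are on GRCm38, a different build, so no gene names or sequences are given.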

Additional observations from a re-analysis of the deposited data

Results flagged for a closer look

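Chromosome X lay outside the rule. On it 9 windows met the same limits, of 117 Th17-bound ones. These 9 held 202 reads in stimulated Th17, 19 in stimulated Th1 and 23 in stimulated Th2, with 16 in resting Th1, 9 in resting Th2, 7 in naive and 7 in input, levels that the rule sets for the stimulated libraries and input. Chromosome X took 2.20% of the distinct reads of stimulated Th17, 2.67% of stimulated Th1, 2.90% of stimulated Th2, 3.95% of resting Th1, 3.70% of resting Th2, 4.43% of naive and 4.21% of input, and the part of this in the count of 9 was not tested.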

How the results depend on the processing

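Here the 3 unstimulated libraries are pooled. By the rule as stated there were 2112 windows, their unstimulated level was 2.29 times input and 0.207 times that of the other Th17-bound windows, 7.43% were bound in at least 1 unstimulated library, the ratio of window to flank was 1.08, and 32% had another within 10 kb.

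The number of windows was 3481 with repeated reads kept, 878 with a limit of 4 times both, 485 with at least 3 RPM, 1346 with 5 times input plus 0.3, 3724 with the fold over stimulated Th1 alone, 3944 with the fold over stimulated Th2 alone, 1343 with ratios divided by their medians (1.13 to stimulated Th1, 1.3 to stimulated Th2), and 4317 with stimulated Th17 thinned to the depth of stimulated Th1. Under the other settings it ran from 1741 to 3107. Of the 2112 windows, 1366 were shared with a 5′ shift of 100 bp, and 1575 with thinning.

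With repeated reads kept, the level was 0.189 times the other windows, the window to flank ratio 1.22 and the share within 10 kb 39.2%. With at least 2 times both, the level was 2.47 times input and 0.228 times the other windows, 9.17% were bound, the flank ratio was 1.13 and 37.7% had a neighbour. With at least 4 times both, these were 1.86, 0.165, 4.67%, 0.935 and 17.8%. With at least 3 RPM, they were 1.83, 0.162, 10.1%, 1.33 and 17.1%. With the fold over stimulated Th1 alone, they were 2.55, 0.241, 11.3%, 1.26 and 40.6%, and over stimulated Th2 alone 3.30, 0.293, 13.8%, 1.28 and 42.8%. With ratios divided by their medians, they were 1.96, 0.183, 6.03%, 0.984 and 25.7%. With 5 times input plus 0.3, which selects for low input, the level was 7.40 times input, the flank ratio 1.04 and 26.8% had a neighbour. With thinning the level was 2.5 times input and 0.228 times the other windows, the flank ratio 0.979 and 41.1% had a neighbour. With at least 1 input read in the window or a neighbour, the level was 1.96 times input and 27.5% had a neighbour. With a shift of 100 bp, the level was 0.218 times the other windows.

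The flank ratio passed below 1 with a limit of 4 times both (0.880 to 0.994), and with ratios divided by their medians (0.939 to 1.03) and with thinning (0.956 to 1.002), whose intervals include 1; the cause was not tested. The level stayed above input and below the other windows in all settings run. On the strand not used to choose, the ratio of stimulated Th17 was 2.12 and 2.08 to stimulated Th1, and 2.06 and 2.00 to stimulated Th2, against 5.11 and 4.88 over both strands.

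No paired analysis was possible because each group has 1 library and the labels carry no replicate numbers, and for the same reason none was left out. At 3 to 5 reads for 2 RPM, the depth of the unstimulated libraries limits what single windows show.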
